A study of Mus musculus with 12 samples.

Results

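The genes described here were 10 genes of the corticotropin-releasing hormone and glucocorticoid stress axis, chosen by gene symbol among 27308 symbols on the array. They were read by 21 probes of 56605, and all 10 genes had at least 1 probe bright enough to be tested. The peptides and their binding partners were Crh, Ucn3, Crhr1, Crhr2 and Crhbp, the steroid receptors were Nr3c1 and Nr3c2, and the genes that glucocorticoids induce were Fkbp5, Tsc22d3 and Sgk1.

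In the hypothalamus, neurons of the paraventricular nucleus release corticotropin-releasing hormone into the portal blood, the pituitary answers with corticotropin, and the adrenal cortex answers with glucocorticoids. These steroids return to the brain and bind the mineralocorticoid receptor, which has the higher affinity, and the glucocorticoid receptor, which is filled mainly during stress and at the daily hormone peak. The activated receptors induce genes such as Fkbp5, Tsc22d3 and Sgk1, and they restrain Crh, which closes the feedback loop. Other CRH neurons lie in the cortex and amygdala.

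The study measured hypothalamus RNA of male mice with single-color Agilent arrays, to ask how loss of Asmt, the last enzyme of melatonin synthesis, and swimming training altered transcription. There were 4 groups of 3 arrays. The WT group held wild-type littermates without training and the KO group held homozygous Asmt knockout mice without training. The wild-type exercise group (exercised WT) and the Asmt-knockout exercise group (KE) were trained daily in a swimming program. It began at the age of 6 to 7 weeks, the age that the labels give for every mouse. The methods describe several weeks of training, so the trained mice were older than this at collection, and no age at collection is given. The knockout was a Cas9 deletion of 20 bp, crossed back to C57BL/6 littermates for 3 generations, and all 4 groups had this C57BL/6 background, a strain known for low melatonin. The methods also describe behavioral tests, a forced swim among them, and do not give the interval between the last test or training and collection.

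Signals are normalized log2 values, so that 1 unit is a doubling, and a probe was called well above background by the scanner software. Asmt itself was well above background on 0 of 12 arrays, so the array could not check the genotype labels. Of 16 hypothalamus markers, 15 were well above background on all 12 arrays. Markers of neighboring tissue were uneven. The summed signal of 9 anterior pituitary markers was 3783 in KO replicate 1, 2633 in KE replicate 1, 2266 in exercised WT replicate 3 and 2093 in KO replicate 2, and between 205 and 304 on the other 8 arrays, with Gh and Pou1f1 well above background on 0 arrays. The arrays lay on 2 slides. Slide 1 carried WT and the first 2 KO replicates, while slide 2 carried KO replicate 3 and all exercised WT and all KE arrays, and the first principal component, 48.5% of the variance, separated the slides. Slide and training can thus be told apart only through KO replicate 3. In bulk tissue, fewer cells of a type and less RNA per cell cannot be told apart.

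Glucocorticoid receptors bind a palindromic DNA element. Promoters are described because the group differences of the induced genes form the main pattern described here. Among 32851 RefSeq promoters (build GRCm38.p6, 250 bases before to 50 after each start), 8 of the 10 genes matched, with 15 windows. The palindrome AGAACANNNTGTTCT was searched on both strands and lay in 3 of all promoters, or 0.00913%, and 1 of these was an Sgk1 promoter. The shorter core AGAACA, which the palindrome contains on each strand, lay in 19.0% of all promoters and in 4 windows of these genes, 3 of Sgk1 and 1 of Tsc22d3. The Fkbp5 window held 0 cores and 0 palindromes, as did the other windows of Sgk1 and Tsc22d3, so the induced genes did not all share the element. The cAMP response element TGACGTCA lay in 1.79% of all promoters and in 0 of the 15 windows. No entry was matched for Crh or Nr3c1. In the sequences that follow, capitals mark the palindrome of Sgk1, which begins 189 bases before the start (chr10:21993640-21993889, plus strand), and the core of Tsc22d3, read on the gene's minus strand (chrX:140600694-140600715).
Sgk1: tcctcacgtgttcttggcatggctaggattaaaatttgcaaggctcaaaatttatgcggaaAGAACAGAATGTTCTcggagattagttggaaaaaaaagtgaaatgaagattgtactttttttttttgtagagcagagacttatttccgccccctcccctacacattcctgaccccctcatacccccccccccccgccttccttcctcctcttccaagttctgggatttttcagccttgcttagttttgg
Tsc22d3: attcgacaTGTTCTaagttctg
These matches describe the letters only, and receptor binding was not measured.

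**Figure D1:**
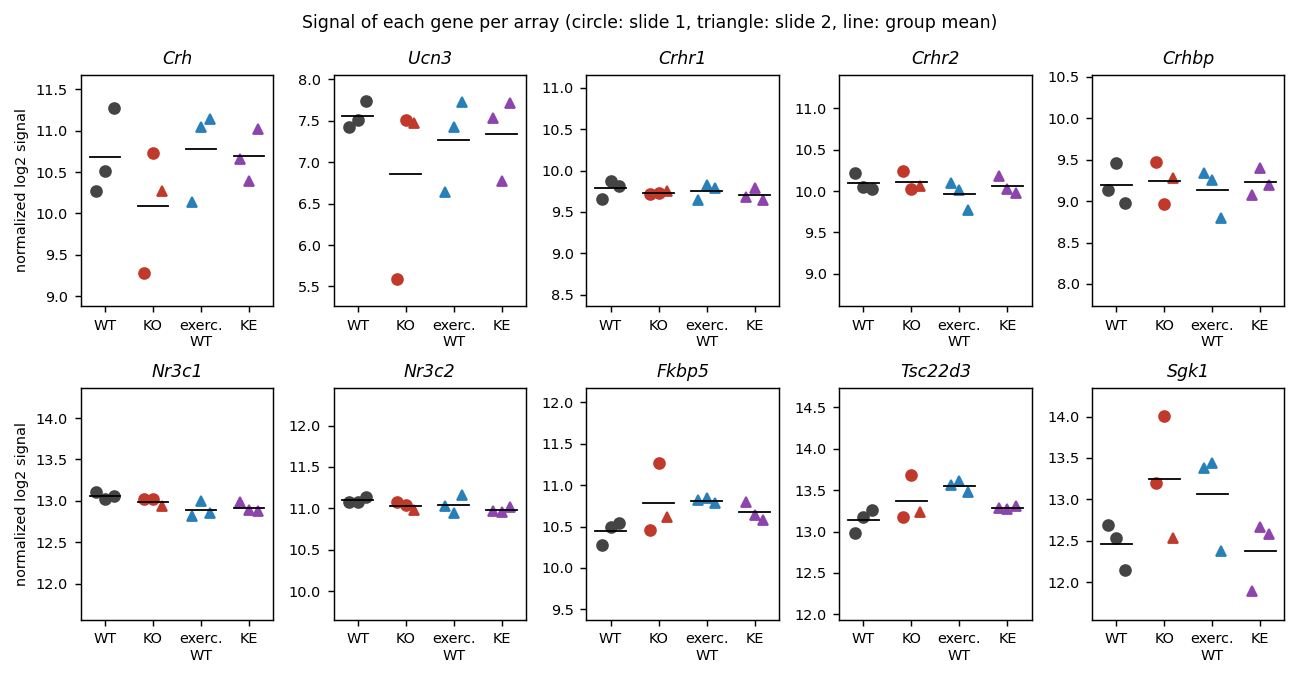
Normalized log2 signal of the 10 genes on each of the 12 arrays, by group, with circles for slide 1, triangles for slide 2 and a line at each group mean. Every panel spans the same range of log2 units. Crh, Ucn3 and Sgk1 spread most, Fkbp5, Tsc22d3 and Sgk1 were highest in KO replicate 2, and the receptors lay close together.

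Of the 10 genes, Sgk1 gave the largest differences between group means. Sgk1, a serine/threonine kinase that regulates ion channels and transporters (probe at chr10:21719390-21719449, mm9), had a log2 signal of 12.69, 12.54 and 12.14 in WT and 13.20, 14.00 and 12.53 in KO. In exercised WT it was 13.38, 13.44 and 12.38, and in KE 11.89, 12.67 and 12.58. The 2 highest KO arrays lay above every WT array, 2 of 3 exercised WT arrays lay above every KE array, and KO replicate 3 and exercised WT replicate 3 lay within the range of the low groups. The resting groups averaged 12.46 ± 0.28 (WT) and 13.24 ± 0.74 (KO), and the trained groups 13.07 ± 0.59 (exercised WT) and 12.38 ± 0.42 (KE; SD, n = 3). Sgk1 was thus higher by 0.79 in KO than in WT (SE 0.40) and lower by 0.69 in KE than in exercised WT, and the groups overlapped in both comparisons.

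Tsc22d3, which encodes the anti-inflammatory protein GILZ (chrX:137074094-137074153, mm9), had a log2 signal of 12.99, 13.17 and 13.26 in WT and 13.18, 13.69 and 13.23 in KO. After training it was 13.57, 13.61 and 13.48 in exercised WT mice and 13.29, 13.27 and 13.31 in KE mice. All 3 exercised WT arrays lay above all WT and all KE arrays, whereas the KO range reached into the WT range. Exercised WT exceeded WT by 0.41 (SE 0.12, adjusted p = 0.0983, limma). KE was lower than exercised WT, with a difference of -0.26 (SE 0.12, adjusted p = 0.794, limma).

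Fkbp5 encodes a co-chaperone that lowers the affinity of the glucocorticoid receptor for its hormone (chr17:28536060-28536119, mm9). Its log2 signal was 10.28, 10.50 and 10.55 in WT and 10.46, 11.27 and 10.62 in KO. The exercised WT arrays gave 10.82, 10.84 and 10.78 and the KE arrays 10.80, 10.65 and 10.58. Every exercised WT array lay above every WT array, and KO replicate 2 stood above all others. The dimmer tested probes of Fkbp5 and Tsc22d3 differed in the same direction as the brighter ones from WT to exercised WT, from WT to KO and from exercised WT to KE.

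Crh, the hormone that starts the cascade (chr3:19593482-19593541, mm9), had a log2 signal of 10.28, 10.51 and 11.27 in WT and 9.28, 10.73 and 10.27 in KO. It was 10.14, 11.04 and 11.14 in exercised WT mice and 10.66, 10.39 and 11.02 in KE mice. The 4 groups overlapped, and the lowest array was KO replicate 1. KO differed from WT by -0.59, with a 95% confidence interval from -1.50 to 0.31, so that this design left room for a fall of more than 2-fold. Ucn3, urocortin 3, a selective ligand of the type 2 receptor (chr13:3940178-3940237, mm9), was 5.58 in KO replicate 1 and lay between 6.65 and 7.73 on the other 11 arrays. The difference between KO and WT was -0.70, with an interval from -1.80 to 0.40.

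Across the 12 arrays, the signals of Crh and Ucn3 had a Pearson r of 0.87 and a Spearman rho of 0.80. Without WT replicate 3 and KO replicate 1, the arrays farthest from the Crh median, r was 0.66, and over the 7 arrays of slide 2 it was 0.76. Crh also varied together with a summed signal of cortex and amygdala markers. Against the log2 summed signal of 9 cortex and amygdala markers, which ran from 1947 in KO replicate 1 to 3571 in exercised WT replicate 3, Crh had r = 0.86 and rho = 0.86. That r was 0.82 without KO replicate 1 and exercised WT replicate 3 and 0.86 on slide 2. Of this list, 6 markers were well above background on all arrays, Neurod6 on 10, Slc17a7 on 3 and Emx1 on none. Cux2 and Tbr1 were the brightest (9.92 and 9.64 in WT, against 7.77 for Bhlhe22, the next) and weigh most in the sum. For Ucn3 r was 0.61 with the same markers and 0.31 without those arrays. The part of dissection in the Crh values was not tested. The points share arrays, groups and slides, so that these coefficients describe the 12 arrays only.

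Genes with a pattern much like that of Crh over the 12 arrays included C230014O12Rik (r = 0.94) and Slc35d2 (r = 0.92). Over the 7 arrays of slide 2 the same r was 0.88 and 0.80.

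**Figure D2:**
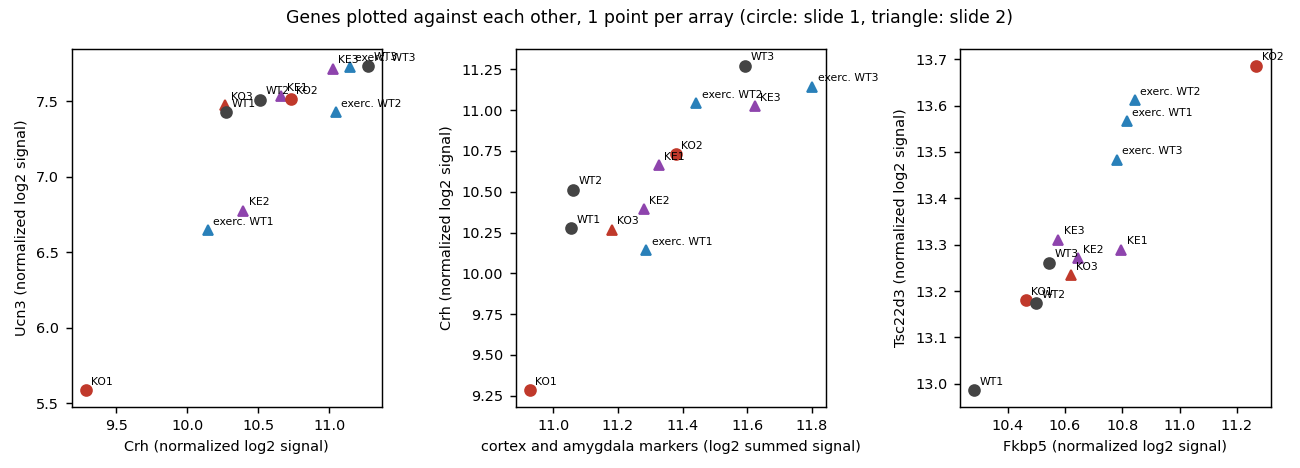
Signals of gene pairs on the 12 arrays, 1 labeled point per array, colored by group. The left panel plots Ucn3 against Crh (r = 0.87), the middle panel Crh against the log2 summed signal of the cortex and amygdala markers (r = 0.86) and the right panel Tsc22d3 against Fkbp5 (r = 0.91). KO replicate 1 sits at the low end of the first 2 panels and KO replicate 2 at the high end of the third.

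Fkbp5 and Tsc22d3 varied together from array to array, with r = 0.91 and rho = 0.92 over 12 arrays, r = 0.85 without WT replicate 1 and KO replicate 2, and r = 0.78 on slide 2. Over 12 arrays Sgk1 followed them less closely, with r = 0.60 against Tsc22d3 and 0.53 against Fkbp5. Without KO replicate 2 and exercised WT replicate 2, r was 0.16 and -0.14. On slide 2 it was 0.74 against Tsc22d3, near that of Fkbp5 and Tsc22d3, and 0.31 against Fkbp5. The genes most like Fkbp5 were Map3k6 (r = 0.96), Mfsd2a (r = 0.94) and LOC102641377 (r = 0.92). Those most like Sgk1 were Nfkbia (r = 0.95), Arl4d (r = 0.95) and Plekhf1 (r = 0.93). Map3k6 and Nfkbia also stood in the list of glucocorticoid-responsive genes used further on. Against the pituitary markers, r was 0.12 for Sgk1, 0.24 for Tsc22d3 and 0.40 for Fkbp5. Without KO replicate 1 and KE replicate 1, the arrays farthest from the median of those markers, it was 0.36, 0.59 and 0.71, and on slide 2 it was -0.68, -0.02 and 0.44. Against the cortex and amygdala markers, r was -0.20 for Sgk1, 0.52 for Tsc22d3 (rho 0.70) and 0.39 for Fkbp5 (rho 0.52). The part of neighboring tissue in these values was not tested.

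By their brightest probes, the receptors of the axis varied little. Crhr1, the main CRH receptor, lay between 9.64 and 9.88 on all 12 arrays, and Crhr2, the urocortin receptor, between 9.78 and 10.24. Crhbp, a secreted protein that binds and neutralizes CRH, lay between 8.79 and 9.47. For these 3 genes the differences between groups ran from -0.14 to 0.10 in the 4 pairwise comparisons. A dimmer Crhr1 probe, at chr11:104034643-104034702 (mm9), gave another picture. Its mean was 4.71 ± 0.17 in KE, against 5.13 ± 0.21 in KO and 5.09 ± 0.19 in exercised WT (SD, n = 3), and KE overlapped neither. Of all tested probes, 20.7% had no overlap between KE and KO and 19.4% none between KE and exercised WT. The adjusted p of this probe was 0.199 and 0.769 (limma). The bright probe, at chr11:104036691-104036750, differed by -0.03 and -0.05 in the same comparisons.

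Nr3c1, the glucocorticoid receptor (chr18:39571641-39571700, mm9), was 13.11, 13.02 and 13.06 in WT and 13.02, 13.02 and 12.93 in KO. Trained mice had 12.82, 13.00 and 12.85 (exercised WT) and 12.98, 12.89 and 12.88 (KE). Exercised WT lay below WT with no overlap, with a difference of -0.17 (SE 0.06, adjusted p = 0.125, limma), a difference that shrank to -0.09 once slide entered the fit. A dimmer Nr3c1 probe had a difference of -0.35 in the same comparison, and this turned to 0.10 with the slide block. Nr3c2, the mineralocorticoid receptor, lay between 10.95 and 11.16 on all arrays. The genes most like Nr3c1 were Ubxn6, Rnaseh2a and Cml2 (r = 0.94 for each over 12 arrays), and on slide 2 their r was 0.82, 0.91 and 0.96.

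The remaining probes were too dim to test. The third probes of Crhr1, Fkbp5 and Nr3c2 were well above background on 1, 2 and 8 arrays, and the third Tsc22d3 probe and the second Sgk1 probe on 0. All 10 representative probes, the brightest tested probe of each gene, were well above background on 12 of 12 arrays.

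At rest, loss of Asmt was compared as KO against WT. An adjusted p under 0.05 was reached by 0 of the 10 genes and by 0% of all 35229 tested probes. Even without adjustment, 0 of the 10 genes had a p under 0.05, against 5.36% of tested probes. Within slide 1, where WT faced KO replicates 1 and 2, the differences were 1.14 for Sgk1 (SE 0.38, adjusted p = 0.851, limma with a slide term), 0.42 for Fkbp5, 0.29 for Tsc22d3 and -0.68 for Crh. Sgk1 was then the 1 gene with an unadjusted p under 0.05, against 5.39% of probes. Nr3c1 and Nr3c2 had KO arrays all below the WT arrays, with a difference of -0.07 each, and groups without overlap occurred for 8.39% of probes. The groups nearly touched, with the highest KO and lowest WT arrays at 13.018 and 13.021 for Nr3c1 and 11.074 and 11.078 for Nr3c2. With the slide block the differences were -0.046 and -0.044. Without KO replicate 2, the difference was 0.41 for Sgk1, 0.10 for Fkbp5 and 0.07 for Tsc22d3, against 0.79, 0.34 and 0.23 with it.

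In wild-type mice, training was compared as exercised WT against WT. Again 0 of 10 genes and 0% of probes had an adjusted p under 0.05. Tsc22d3, higher in exercised WT, and Nr3c1, lower in exercised WT, had an unadjusted p under 0.05, while 26.8% of all probes did, so that 2 of 10 was near the background. These groups lay on different slides, and with the slide block the share was 6.13%, with Tsc22d3 (0.61, SE 0.22) and Sgk1 (1.68, SE 0.61) then among the probes counted. Both block values rest on KO replicate 3 as the bridge between slides. Fkbp5, Nr3c1 and Tsc22d3 had no overlap between exercised WT and WT, as did 38.5% of probes. Within slide 2, exercised WT exceeded KO replicate 3, the single resting array there, by 0.54 for Sgk1, 0.32 for Tsc22d3 and 0.19 for Fkbp5, values that have no test.

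In knockout mice, KE was compared with KO. The adjusted p was under 0.05 for 0 of 10 genes and for 0.0199% of probes, and the unadjusted one for 0 genes, against 20.4% of probes and 8.9% with the slide block. Sgk1 was lower in KE by a log2 difference of -0.87 (SE 0.40, adjusted p = 0.25, limma). Against the single KO array of slide 2 the difference was -0.15. Without KO replicate 3 it was -1.22 with an adjusted p of 0.0463 in limma, and without KO replicate 2 it was -0.49. With KO replicate 3 left out, KO lay wholly on slide 1 and KE on slide 2, so training and slide could not be told apart. Groups of 20.7% of probes did not overlap, against 0 of the 10 genes. Crh was higher by 0.60 (SE 0.41) and Ucn3 by 0.48 (SE 0.49), and both ranges overlapped. With the slide block Crh was 0.43 and Ucn3 turned to -0.13. The Ucn3 difference also changed sign without KO replicate 1.

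After training, the genotypes were compared as KE against exercised WT, which all lay on slide 2. The comparison gave 0 of 10 genes with an adjusted p under 0.05, against 0% of probes. Unadjusted, the count was 0, against 6.38% of probes, or 10.1% with the slide block. Tsc22d3 was the 1 gene of 10 without overlap between the groups, against 19.4% of probes. Sgk1 was lower in KE, with a difference of -0.69 (SE 0.40, adjusted p = 0.821, limma). It was -1.03 without exercised WT replicate 3, the lowest exercised WT array for Sgk1 (12.38), whose omission can only widen the difference. The difference also draws on KE replicate 1 (11.89), the lowest array of all, whose omission can only narrow it. Exercised WT replicate 3 had a striatum marker sum of 18022 against 9595 to 12619 elsewhere, and the part of that tissue in the difference was not tested. Crh and Ucn3 differed by -0.08 and 0.07, with intervals from -0.99 to 0.82 and from -1.02 to 1.17.

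**Figure D3:**
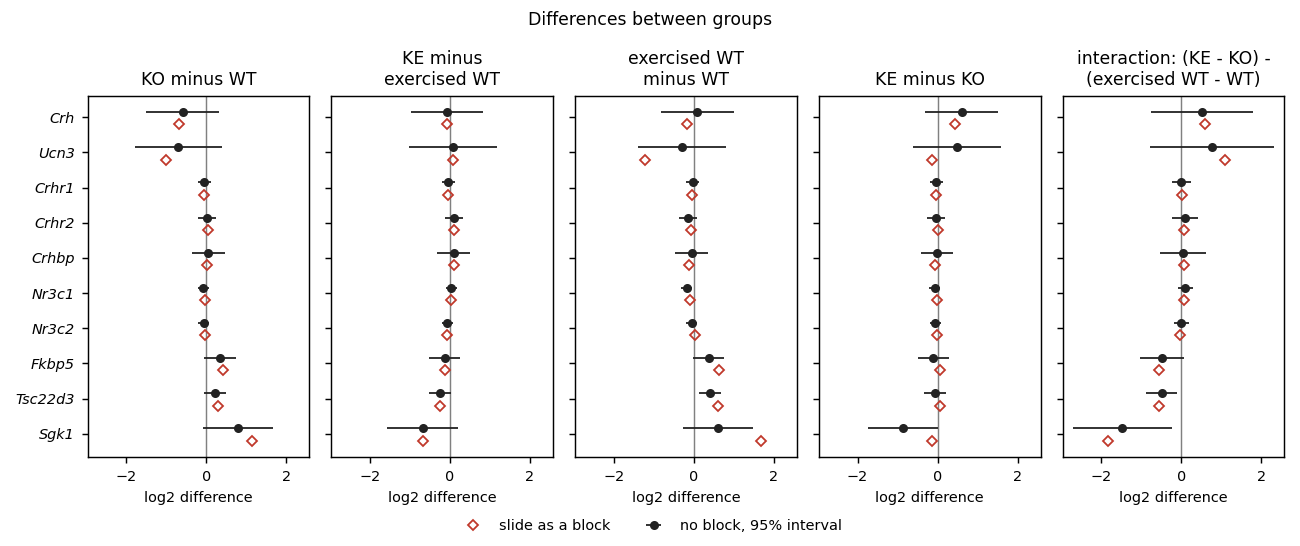
Differences in normalized log2 signal for the 10 genes in the 4 pairwise comparisons and the interaction. Filled circles with bars are the fit without a block and its 95% confidence interval, and open diamonds the value with the slide as a block. The intervals of Crh, Ucn3 and Sgk1 are wide and those of the receptors narrow, and in the interaction the intervals of Tsc22d3 and Sgk1 lie below 0.

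Whether training acted alike in both genotypes was asked by the interaction, the difference from KO to KE minus the difference from WT to exercised WT. The induced genes shared one direction, with -1.47 for Sgk1 (SE 0.56, adjusted p = 0.595), -0.49 for Tsc22d3 (SE 0.17, adjusted p = 0.591) and -0.48 for Fkbp5 (SE 0.25, adjusted p = 0.684), all by limma. Each was higher in KO than in WT at rest and lower in KE than in exercised WT after training. None passed the adjustment, as 0 of 10 genes and 0% of probes had an adjusted p under 0.05. Unadjusted, Sgk1 and Tsc22d3 had a p under 0.05, 2 of 10 genes, against 7.68% of probes, and both were lower, as were 3.64% of probes. With the slide as a block the interaction is the difference between 2 comparisons made within a slide. The same 2 genes were counted, at -1.83 (SE 0.51) and -0.56 (SE 0.18), against 10.5% of probes. KO replicate 3, the lowest KO array for Sgk1, only sets the slide term in this fit. The interaction and KO against WT thus take the values found without KO replicate 3. Without KO replicate 2 the interaction was -1.10 for Sgk1, -0.33 for Tsc22d3 and -0.24 for Fkbp5. Sgk1 no longer had an unadjusted p under 0.05 without that array, without WT replicate 3, exercised WT replicate 1, exercised WT replicate 2 or KE replicate 1, each taken out alone, with values from -1.32 to -1.10. Crh and Ucn3 had interactions of 0.51 (SE 0.57) and 0.77 (SE 0.70). Their confidence intervals ran from -0.77 to 1.79 and from -0.78 to 2.33, so the sign of neither was settled. KO replicate 1 was the lowest array for both genes, at 9.28 and 5.58, and these low values raised both interactions.

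A list of 25 other genes that glucocorticoids are known to induce was taken, and all were tested. The list was chosen with earlier results of these data known, so its counts describe these arrays and are not independent support. Its genes also varied together from array to array and are not separate observations. In the interaction 24 of 25 had a value below 0, against 48.2% of all 18266 tested genes, with a median of -0.47 against 0.01. An adjusted p under 0.05 was reached by 0, and an unadjusted one by 6, all lower, against 3.64% of probes that were lower. Cdkn1a, a cell cycle inhibitor that p53 also induces, had -1.14 (SE 0.36) and Zbtb16, a transcriptional repressor, -1.50 (SE 0.53), the smallest p-values of the list. The others were Errfi1 (-0.34), Klf9 (-0.47), Mertk (-0.58) and Pdk4 (-0.57). The paper also measured Cdkn1a by quantitative PCR and lists it among the genes that this assay did not verify. With the slide block, 14 of the 25 genes had an unadjusted p under 0.05, all lower, against 5.38% of probes.

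The differences of the list had opposite signs at rest and after training. KO was lower than WT in 2 of 25 genes, against 52.7% of all genes, with a median of 0.24 against -0.01. KE was lower than exercised WT in 21 of 25, against 48% of all genes, with a median of -0.22 against 0.01. These comparisons share no arrays. At rest 0 genes had an unadjusted p under 0.05, and with the slide block 11 did, all higher, against 2.92% of probes that were higher. The block fit at rest likewise equals leaving out KO replicate 3. The smallest p-values were those of Map3k6 (0.65, SE 0.29) and Errfi1 (0.19, SE 0.09). After training 2 of 25 genes did, against 6.38% of probes, Klf9 (-0.29, SE 0.12) and Cdkn1a (-0.60, SE 0.26). With the slide block there were 5, all lower, against 10.1% of probes in either direction.

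KO replicate 2 stood out in this list. Its genes lay above their own 12-array means in 24 of 25 cases, with a median deviation of 0.54. The deviation was 0.00 in KO replicate 1, -0.14 in KO replicate 3 and between -0.09 and -0.07 in WT. In exercised WT it was 0.11, 0.13 and -0.04, and in KE between -0.14 and -0.11. KO replicate 2 also had the highest summed signal of 7 choroid plexus markers, 7307, against 5325 to 6937 in exercised WT, 4686 to 6172 in WT and 4628 to 4842 in KE, and 5 of these markers were well above background on all arrays. Its sum of 7 endothelium markers, all well above background on every array, was 26485, against 20242 to 24633 elsewhere. The part of these cell types in the list was not tested. Without KO replicate 2, the median difference between KO and WT was 0.06 with 5 of 25 genes lower, and the median interaction was -0.26 with 22 of 25 below 0. The median difference between KE and exercised WT does not use KO arrays.

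**Figure D4:**
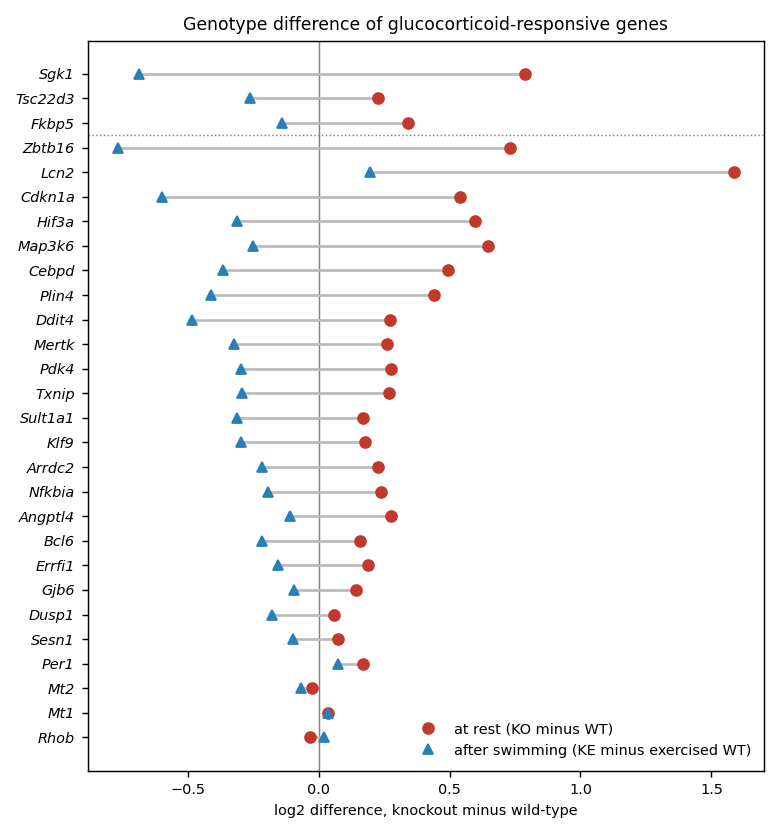
Difference between knockout and wild-type mice, in normalized log2 signal, at rest (red circles, KO minus WT) and after training (blue triangles, KE minus exercised WT), for the 25 glucocorticoid-responsive genes and, above the dotted line, Fkbp5, Tsc22d3 and Sgk1. In 23 of the 25 genes the circle lies above 0 and in 21 the triangle lies below 0.

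Between exercised WT and WT, which lay on different slides, 4 genes of this list had an unadjusted p under 0.05. All were higher in exercised WT, against 11.1% of probes that were higher, led by Gjb6 (0.31, SE 0.08) and Mt1 (0.19, SE 0.07). With the slide block, which rests on KO replicate 3 as the bridge, there were 8, all higher, against 2.59% of probes. Mertk (0.36, and 0.80 with the block) was counted in both, while Gjb6 (0.22 with the block) and Mt1, which turned to -0.03, were not among the 8. In knockout mice 6 were lower, against 11.7% of probes, and 1 was higher, led by Cdkn1a (-1.05, SE 0.26) and Errfi1 (-0.29, SE 0.09), and with the slide block there were 0.

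Among genes that fold the receptors or act with them, directions were mixed. Of 16 chaperones and cofactors, 2 had an unadjusted p under 0.05 in the interaction, both lower, against 3.64% of probes that were lower, with Dnajb1, an HSP40 chaperone, at -0.68 (SE 0.24) and St13, an HSP70-interacting protein, at -0.23 (SE 0.09). Dnajb1 was lower in KE than in exercised WT, with a difference of -0.43 (SE 0.17), and Crebbp, a histone acetyltransferase, was higher by 0.20 (SE 0.07). From KO to KE, 4 genes were lower and 1 was higher with an unadjusted p under 0.05, against 20.4% of probes, with St13 at -0.31 (SE 0.07) and Crebbp at 0.30 (SE 0.07). A single gene, St13 at -0.19, was counted with the slide block. From WT to exercised WT, Bag1 differed by -0.16 and Smarca4 by 0.13, against 26.8% of probes with an unadjusted p under 0.05, and with the slide block Bag1 turned to 0.06 and Smarca4 was 0.08. At rest 0 of 16 were counted, or 2 with the slide block, both higher, and the smallest p-values were those of Fkbp4 (0.14, SE 0.09) and Dnajb1 (0.24, SE 0.17).

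Among 14 other genes of the CRH family and its upstream regulators, 12 were tested. Crtc3 and Creb1, a coactivator and its transcription factor in cAMP signaling, led the interaction at -0.33 (SE 0.10) and -0.29 (SE 0.13), the 2 genes of this list with an unadjusted p under 0.05, against 7.68% of probes. With the slide block Crtc3 (-0.31) was counted and Creb1 (-0.22) was not. At rest both were higher in KO, by 0.16 (SE 0.07) and 0.21 (SE 0.09), and neither was counted with the slide block (0.14 for each). Between KE and exercised WT, Crtc3 differed by -0.17 (SE 0.07), and Avp, vasopressin, which acts with CRH on the pituitary, by 0.31 (SE 0.18). From WT to exercised WT, 5 genes were higher and 3 lower with an unadjusted p under 0.05, against 26.8% of probes, with Crtc3 at 0.24 (SE 0.07) and Pcsk2, a prohormone convertase, at -0.26 (SE 0.08). Once slide entered the fit, 0 were higher and 1 was lower (Sim1, -1.10), and Crtc3 was 0.18 and Pcsk2 -0.10. From KO to KE, Crtc1 differed by 0.28 (SE 0.10), which was 0.0036 with the slide block, and Sim1 by 1.41 (SE 0.69), which turned to -0.66.

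Of 8 genes of corticotropin and steroid handling, 4 were tested, and 0 had an unadjusted p under 0.05 in the interaction or between genotypes. H6pd, which supplies cofactor to the enzyme that regenerates glucocorticoids, differed between exercised WT and WT by -0.24 (SE 0.10), and Abcb1a, a drug and steroid exporter, by -0.29 (SE 0.12). These were -0.03 and -0.21 with the slide block, and 0 genes of this list were counted. The smallest p-values from KO to KE were those of H6pd (-0.20, SE 0.10, or -0.06 with the slide block) and Pomc, the corticotropin precursor (-0.39, SE 0.24). Between KE and exercised WT, Abcb1a and H6pd differed by 0.12 and 0.06, and between KO and WT, Abcb1a and Hsd11b1 by -0.12 and -0.08. In the interaction Abcb1a and H6pd had 0.24 and 0.05.

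Of 11 genes of the mineralocorticoid receptor and SGK1 pathway, 9 were tested. Sgk2, a kinase related to SGK1, differed with the opposite sign to Sgk1. It was lower in KO than in WT, with a difference of -0.46 (SE 0.19), and in exercised WT than in WT, with a difference of -0.48 (SE 0.19), with an interaction of 0.71 (SE 0.26). With the slide block these were -0.41, -0.35 and 0.66, and only the interaction still had an unadjusted p under 0.05. Foxo3, a substrate of these kinases, had an interaction of -0.16 and differed between KE and exercised WT by -0.13 (SE 0.06). Scnn1a, an epithelial sodium channel subunit, differed by 0.17 (SE 0.08) between KE and exercised WT, by 0.12 between KO and WT and by -0.09 between exercised WT and WT. From KO to KE, 3 genes were lower with an unadjusted p under 0.05, against 11.7% of probes that were lower, led by Pdpk1 (-0.14, SE 0.05) and Nedd4l (-0.13, SE 0.05), and 0 were with the slide block. In none of the 5 lists and 5 comparisons did a gene have an adjusted p under 0.05.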

How the data were processed

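Hypothalamus RNA of 12 mice was hybridized to single-color Agilent arrays. The authors deposited the scanner output, whose spot intensity values had been background-corrected in Feature Extraction 10.7.1.1, and a second file with log2 intensity after quantile normalization across arrays. The authors' deposited tables of group comparisons hold fold changes, p-values and 24 columns of values per sample, and none of these was used. Non-control spots were kept, outlier spots were left out, and log2 processed intensity was quantile-normalized and averaged per probe. The test took 35229 probes, those that the scanner software called well above background in all 3 mice of 1 or more groups. limma 3.58.1 (R 4.3.3) estimated the 4 group means, with Benjamini-Hochberg adjustment over all tested probes. Each gene was represented by its brightest tested probe. Per array, the spots called above background made up 61.62% to 67.91%, and 0 were saturated. The number of arrays limits the precision. The labels give no litter, so that p-values measure the spread between these samples. Groups came from the sample labels. The scripts were tested on simulated data. The alternatives changed the background correction, scaling, detection filter, outlier spots, test, slide and replicate blocks, samples fitted and choice of probe, and left out each array. The members, the gene lists and the marker lists were chosen with earlier results of these data known. Genes named were the members, the 2 smallest p-values of each list and comparison, and the 3 genes most correlated with 4 members. The remaining genes of the interaction list were named after their values were seen. Probe coordinates follow the array design (mm9), and their place in exons was not analysed here. One of the genes selected by their likeness to Crh is not reported here.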

Additional observations from a re-analysis of the deposited data

Results flagged for a closer look

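The change with training differed between the genotypes for 2 genes by the test of the interaction without adjustment. Its log2 value was -0.49 for Tsc22d3 and -1.47 for Sgk1, and in limma neither passed the adjustment over all tested probes (adjusted p of 0.591 and 0.595), while 7.68% of all tested probes had an unadjusted p under 0.05. Tsc22d3 kept an unadjusted p under 0.05 when any 1 of the 12 arrays was left out, with values from -0.58 to -0.33, and Sgk1 did not when any of 5 arrays was left out.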

How the results depend on the processing

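Each count is of the 10 genes unless another list is named. Without and with the slide block, 5.36% and 5.39% of all tested probes had an unadjusted p under 0.05 for KO against WT. The shares were 26.8% and 6.13% for exercised WT against WT and 20.4% and 8.9% for KE against KO. They were 6.38% and 10.1% for KE against exercised WT and 7.68% and 10.5% for the interaction. No share is given for the other settings, so their counts cannot be read as results about these genes. With an unadjusted p under 0.05, KO against WT gave 0 genes, 1 with the slide block and 0 to 2 when 1 array was left out (2 without KO replicate 1 and 1 without KO replicate 3). The count for exercised WT against WT was 2, and 3, with Fkbp5 added, with 75th percentile scaling, the methods' t-test or the compared groups only, and 2, Tsc22d3 and Sgk1, with the slide block, and 1 to 3 when 1 array was left out (1 without WT replicate 1 or exercised WT replicate 1). KE against KO gave 0 genes, and 1 with 75th percentile scaling, with a filter for signal on all arrays (Sgk1), or with the mean of a gene's probes (Crhr1), and 0 to 1 when 1 array was left out (1 without KO replicate 3 or exercised WT replicate 3). KE against exercised WT gave 0 genes, and 1, Tsc22d3, with 75th percentile scaling, the authors' normalized table, outlier spots kept, the methods' t-test or the compared groups only, and 0 to 1 when 1 array was left out (1 without KO replicate 1, KO replicate 2 or exercised WT replicate 3). The interaction gave 2 genes, and 1 to 3 when 1 array was left out. With an adjusted p, exercised WT against WT gave 0 genes, and 1 when only these groups were fitted (Tsc22d3, adjusted p = 0.0436, limma), and 0 to 1 when 1 array was left out, as did KE against KO (1 without KO replicate 3 in both). In each of these settings with 1 gene, the compared groups lay wholly on different slides. The glucocorticoid-responsive list, an alternative chosen after seeing the data, gave 6 genes in the interaction and 14 with the slide block. It gave 4 to 14 when 1 array was left out, with 11 without KO replicate 1 and 14 without KO replicate 3. For the interaction and KO against WT, the slide block and the fit without KO replicate 3 are the same and not separate alternatives. Numbers did not pair the arrays, as 4 of 18 same-numbered pairs had correlated deviations above 0.1. With the replicate number as a block, KO against WT and KE against KO gave 1 gene each and the list 10. Of the values for single genes, 1109 kept their side of the threshold and their size, 27 gained an unadjusted p under 0.05, 9 lost it and 15 moved. The cause of these shifts was not tested. Dim probes limit Crhr1, Fkbp5, Tsc22d3 and Sgk1 to their brighter probes.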
